A study of Mus musculus with 74 samples.

Results

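Esrrb and Tfcp2l1 are 2 of the 37620 genes in the RNA-seq tables of a study of Nanog in mouse ES cells. They were taken by name, as regulators of naive pluripotency that act downstream of LIF and Nanog, and were followed across all 35 libraries of 12 conditions by cell line, clone, LIF, Dox and level of Nanog. All cells were E14Tg2a ES cells or derived from them, and were grown on gelatine in serum. Nanog SunTag cells carry a Dox-inducible CRISPR activator and a guide RNA to the endogenous Nanog promoter, and Nanog/Otx2 SunTag cells carry a guide RNA to Otx2 as well. Each was 1 clone from each of the parental clones C1 and C2, chosen for good induction, and the Nanog/Otx2 clones (C1ON3 and C2ON3) were made from the Nanog SunTag clones. SunTag cells were sampled with LIF (10 ng/mL) or 3 days without it, each with or without Dox (1 µg/mL, 72 h). Nanog SunTag cells gave 3 libraries with LIF, 2 with LIF and Dox, 3 with neither and 3 with Dox alone. Nanog/Otx2 SunTag cells gave 3, 4, 4 and 4 libraries in the same order. 44iN cells are Nanog-null ES cells in which Dox drives a Nanog transgene, and they were sampled in LIF with Dox (2 libraries), 24 h without Dox (2) and in long-term culture without Dox under G418 selection (2). Unmodified Tg2a cells in serum and LIF gave 3 libraries.

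ES cells are kept in the naive state by transcription factors that sustain one another. The cytokine LIF signals through its receptor and JAK kinases to STAT3, and STAT3 is known to activate Tfcp2l1, a grainyhead-related DNA-binding protein. Esrrb, an orphan nuclear receptor of the oestrogen receptor-related family, is a known target of Nanog and of the Wnt pathway, where Tcf7l1 represses it until Gsk3 is inhibited. Either gene, when expressed at a high level, is known to sustain self-renewal when other naive signals are weak.

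In mm9, the build of the tables, Esrrb (ENSMUSG00000021255) lies on the plus strand of chromosome 12 from 87702067 to 87862578, and Tfcp2l1 (ENSMUSG00000026380, Tcfcp2l1 in the annotation) on the plus strand of chromosome 1 from 120524522 to 120581744. The 250 bases before each start site listed by RefSeq (GRCm38.p6, plus strand) are shown because the 2 genes moved together on LIF withdrawal. Capitals mark the matches to the elements searched, read on both strands except for the TATA box, which was read on the plus strand.
Esrrb, start 1, chr12:86360867-86361116: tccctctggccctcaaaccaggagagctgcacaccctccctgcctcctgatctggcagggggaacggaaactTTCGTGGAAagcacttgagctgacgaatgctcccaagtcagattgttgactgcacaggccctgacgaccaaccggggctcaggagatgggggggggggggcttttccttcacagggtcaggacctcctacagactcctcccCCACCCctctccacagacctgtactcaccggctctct
Esrrb, start 2, chr12:86421394-86421643: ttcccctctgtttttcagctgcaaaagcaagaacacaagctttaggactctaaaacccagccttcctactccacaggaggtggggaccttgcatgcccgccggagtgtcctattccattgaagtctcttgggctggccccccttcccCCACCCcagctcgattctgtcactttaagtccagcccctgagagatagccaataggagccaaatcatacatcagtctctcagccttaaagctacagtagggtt
Tfcp2l1, chr1:118627695-118627944: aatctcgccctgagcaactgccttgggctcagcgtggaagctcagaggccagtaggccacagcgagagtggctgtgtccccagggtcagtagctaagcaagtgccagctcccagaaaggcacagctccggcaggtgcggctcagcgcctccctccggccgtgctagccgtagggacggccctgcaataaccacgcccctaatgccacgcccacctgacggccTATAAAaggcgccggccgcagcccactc
The first Esrrb promoter held a STAT element (TTCNNNGAA) 178 bases before the start, a sequence found in 7.02% of the 32851 mouse promoters of the same length. Both Esrrb promoters held a Klf element (CCACCC), 37 and 103 bases before their starts, as did 28.1% of all promoters. The Tfcp2l1 promoter held a TATA box (TATAAA) 28 bases before the start, found in 7.59% of promoters, and its GC content of 65.2% exceeded the 60.8% and 52% of the Esrrb promoters. The ERR element (AAGGTCA, in 4.08% of promoters), the TCF/LEF element (CTTTGAT, 3.21%) and the Otx2 element (TAATCC, 6.25%) had no match in these windows. These matches describe letters only and no binding was measured here.

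The guides decide which promoter the activator is brought to, and are shown with the 20 bases compared in capitals.
Nanog guide: gCTTCCCACTAGAGATCGCCA
Otx2 guide: AATGTAGAGCGTGCATTTGG
The Nanog guide matched perfectly at chr6:122657269-122657288 (plus strand, mm9), 229 bases before the start of Nanog. Within Esrrb and 10000 bases on either side, the best of 25660 sites next to an NGG motif had 5 mismatches to the Nanog guide and 7 to the Otx2 guide. For Tfcp2l1 the best of 9873 sites had 6 and 8 mismatches. Binding of the activator was not measured here.

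Libraries summed to between 6107512 and 92244655 estimated counts, and values below are normalised counts, the authors' counts divided by a size factor for each library. Nanog served as the check of the labels. It rose 8.76-fold (Nanog guide) and 8.93-fold (Nanog/Otx2 guides) with Dox in the absence of LIF, and was at 228 to 276 normalised counts in long-term 44iN cells without Dox against 13366 to 18394 with Dox. The summed level of 5 ES cell markers was between 35035 and 97632 in every library. Markers of trophoblast (9.26 to 240.4) and mesendoderm (9.33 to 129) were low throughout. The neural marker Pax6 was at 20.0 to 664, and it fell by 2.26 in long-term 44iN cells against Dox and was higher by 2.76 in Nanog SunTag cells without LIF and with Dox than in those with LIF and without Dox (edgeR adjusted p = 0.0317 and 0.0298). In Nanog/Otx2 SunTag cells Pax6 changed by -1.87 with Dox in LIF and by 1.51 on LIF withdrawal under Dox, both called by edgeR. The 5 extraembryonic endoderm markers summed to 3889 to 6026 in long-term 44iN cells and 2057 to 2645 in Tg2a cells, against 79.3 to 720 in the other 44iN libraries and 96.7 to 616 in SunTag cells. The labels do not say whether libraries of a clone came from separate cultures, so p-values measure the spread of these libraries only. In bulk RNA, fewer cells of a type and less RNA per cell cannot be told apart. Genes of chromosome 1, which holds Tfcp2l1, were higher in clones C2 and C2ON3 than in C1 and C1ON3, as described with the clones.

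Esrrb was highest in cells that had LIF and either their own or induced Nanog. Its mean ran from 658 ± 73.9 (SD, n = 4) in Nanog/Otx2 SunTag cells without LIF and Dox to 20197 ± 1532 (n = 2) in Nanog SunTag cells with both, a 30.7-fold span. The 4 SunTag conditions with LIF (means 16900 to 20197) overlapped each other in their libraries and were followed by 44iN cells with Dox (14329 ± 5139, n = 2) and Tg2a cells (11965 ± 2305, n = 3), which overlapped too. Below these the conditions separated, as 44iN cells 24 h without Dox (9087 ± 2062, n = 2), Nanog SunTag cells without LIF but with Dox (6182 ± 431, n = 3), the same condition with both guides (5259 ± 428, n = 4) and long-term 44iN cells (4098 ± 341, n = 2) did not overlap their neighbours in the order. The 2 SunTag conditions without LIF and Dox were lowest and overlapped.

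Tfcp2l1 followed another order. Its mean was highest in 44iN cells 24 h without Dox (36429 ± 2245, n = 2), followed by 44iN cells with Dox (21790 ± 3032, n = 2) and Tg2a cells (16062 ± 1798, n = 3), each without overlap with the next. The SunTag conditions with LIF (means 10386 to 13076) and long-term 44iN cells (9307 ± 1743, n = 2) overlapped with their neighbours. All 4 SunTag conditions without LIF were lower, at 1722 ± 264 (n = 3) and 1198 ± 479 (n = 4) with Dox and 383 ± 104 (n = 3) and 287 ± 85.9 (n = 4) without it. The span between highest and lowest means was 127-fold, against 336-fold for Nanog.

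**Figure D1:**
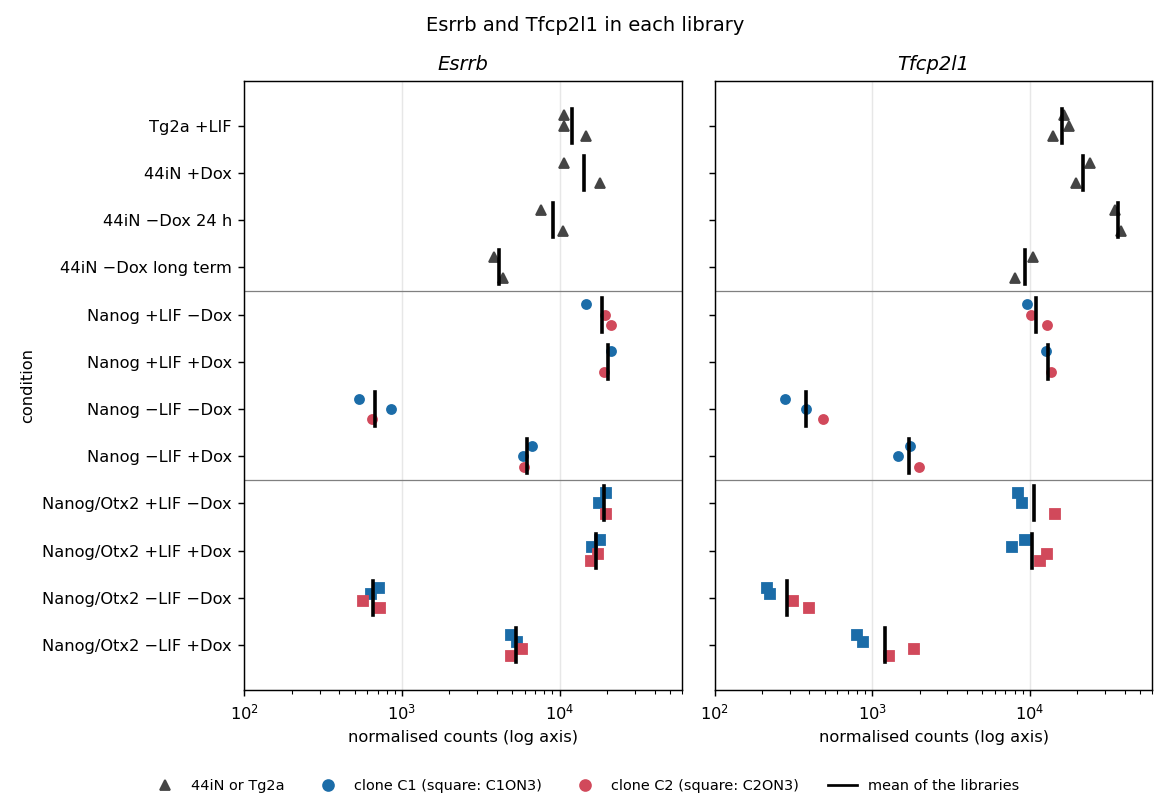
Normalised counts of Esrrb and Tfcp2l1 (log axis, 1 panel each) in each of the 35 libraries by condition, with triangles for 44iN and Tg2a cells, circles and squares for the SunTag clones and a short line for the mean of each condition. Esrrb and Tfcp2l1 are lowest in SunTag cells without LIF and Dox, with means of 676 and 658 for Esrrb and 383 and 287 for Tfcp2l1.

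The first comparison asked what LIF withdrawal did while Nanog was not induced. In Nanog SunTag cells Esrrb was at 14784, 19406 and 21159 normalised counts with LIF and at 533, 852 and 644 without it. Tfcp2l1 was at 9634, 10104 and 12948 with LIF and at 279, 383 and 487 without it. Every library with LIF lay far above every library without it for both genes. Esrrb fell by 4.79 on the log2 scale (SE 0.21, edgeR adjusted p = 1.9e-07, 27.3-fold lower by means) and Tfcp2l1 fell by 4.85 (SE 0.24, edgeR adjusted p = 3.99e-07, 28.5-fold). Of the 15624 genes tested, 41.5% were called in this comparison with 21.3% lower and 20.2% higher, and 115 and 112 genes had a log2 fold change below those of Esrrb and Tfcp2l1.

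In Nanog/Otx2 SunTag cells both genes fell as well. Esrrb was at 19756, 17725 and 19744 with LIF and at 712, 638, 562 and 720 without it, and fell by 4.89 (SE 0.11, edgeR adjusted p = 3.1e-13, 29.0-fold). Tfcp2l1 was at 8380, 8858 and 14554 with LIF and at 214, 225, 314 and 397 without it, and fell by 5.24 (SE 0.34, edgeR adjusted p = 1.54e-08, 36.9-fold). The groups did not overlap for either gene. Here 49.8% of 15609 genes were called, 25.2% lower and 24.6% higher, with 59 and 33 genes below the 2 members. The change differed between the guides by -0.10 for Esrrb (95% interval -0.50 to 0.30, edgeR adjusted p = 0.837) and by -0.38 for Tfcp2l1 (-1.21 to 0.45, adjusted p = 0.666), in a comparison that called 2.49% of genes. Libraries of the 2 guides carry names of different series, so guide and library series cannot be told apart. In Nanog SunTag cells, names of libraries with LIF begin with HV_G and those without it with HV_H. What these letters stand for is not given, so they cannot be told apart from LIF there. With both guides all names are of a single series.

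The changes had the same direction in each clone fitted alone. Within clone C1 alone Esrrb changed by -4.44 and Tfcp2l1 by -4.89, and within clone C2 by -4.98 and -4.56. Within C1ON3 the changes were -4.81 and -5.33, and within C2ON3 -4.95 and -5.36. C1 and C2ON3 had 1 library with LIF and C2 had 1 without it, each assumed to vary like the other libraries of its clone, so these are given as values.

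Other naive regulators moved the same way. Of the 15 on the list, 14 fell in Nanog SunTag cells (median change -3.59, against -0.05 over all genes tested) and 15 in Nanog/Otx2 SunTag cells (median -3.98, against -0.01). Of all genes tested, 21.3% and 25.2% were called lower. The changes were -5.56 and -4.95 for the Krüppel-like factor Klf4, -4.38 and -4.33 for Prdm14 and -4.06 and -4.32 for Zfp42, also known as Rex1. Klf5 fell (-2.41 and -3.36), less than either member, and Fgf4, a growth factor that promotes exit from naive pluripotency, fell least (-0.72 and -0.67). Of the 3 core factors, 2 fell with the Nanog guide and 1 with both guides, against the same 21.3% and 25.2% of all genes. Sox2 fell (-1.11 and -0.87), Pou5f1 (Oct4) fell by 0.58 in Nanog SunTag cells and was at -0.14 (edgeR adjusted p = 0.152) in Nanog/Otx2 SunTag cells, and Sall4 passed the test in neither.

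Genes of the formative and primed states, which follow naive pluripotency, moved the other way in the same cells. Of 8 on the list 7 were tested and 7 rose with either guide set (medians 3.75 and 3.03, against 20.2% and 24.6% of all genes called higher), among them the DNA methyltransferase gene Dnmt3b (4.07 and 3.38) and Otx2 (2.42 and 2.04). Of the markers of extraembryonic endoderm, 4 of 4 tested fell in Nanog SunTag cells (median -1.81) and 1 of 5 in Nanog/Otx2 SunTag cells (median -0.67). Of all genes 21.3% and 25.2% were called lower, so nothing can be read from the second count. The part of other cell states in the falls of Esrrb and Tfcp2l1 was not tested.

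Genes of the LIF pathway itself were in part lower. Of 6 genes on this list, 4 fell and 1 rose with either guide set, with medians of -1.59 and -1.96, where 21.3% and 25.2% of all genes were called lower and the medians over all genes were -0.05 and -0.01. Socs3, a feedback inhibitor induced by STAT3, fell (-5.93 and -5.59), as did the receptor gene Lifr (-2.54 and -2.84), Stat3 (-2.43 and -2.65) and the co-receptor gene Il6st (-0.75 and -1.27). The gene that rose was Ptpn11, which encodes the phosphatase Shp2, with changes of 1.06 and 0.63. Of 8 genes of pathways known to act on Esrrb or Tfcp2l1, 4 rose and 0 fell with the Nanog guide (median 0.71). With both guides 3 rose and 1 fell (median 0.12), and 4 were not called with either guide set. Of all genes 20.2% and 24.6% were called higher, so little can be read from these counts. Tcf7l1, the Wnt-pathway repressor of Esrrb, rose by 1.54 and 1.23, Gsk3b by 0.90 and 0.71 and Tfe3 by 1.16 and 1.01. Ncoa3, a coactivator of Esrrb, was at -0.32 (edgeR adjusted p = 0.207) with the Nanog guide and fell by 1.06 with both guides.

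Of the 6 genes of the CP2 and grainyhead family, Tfcp2l1 included, 3 were called higher and 2 lower with either guide set. Of the oestrogen receptor-related family, Esrrb included, 0 of 2 tested were higher with the Nanog guide and 1 of 3 with both guides. Of all genes 20.2% and 24.6% were called higher, and 21.3% and 25.2% lower. With so few genes nothing is read from these counts. Esrra was at 66.9, 243 and 174 normalised counts with LIF and 121, 93.1 and 120.5 without it in Nanog SunTag cells, overlapping groups with a change of -0.56 (edgeR adjusted p = 0.253). Esrrg was at or below 38.4 normalised counts in every library, and with both guides it rose by 2.03 (edgeR adjusted p = 0.0159), from 1.34 to 4.63 normalised counts with LIF to 5.28 to 10.02 without it. Tfcp2, the ubiquitous relative of Tfcp2l1, changed by -0.42 (edgeR adjusted p = 0.142), and Ubp1, also of the CP2 family, rose by 0.55 (edgeR adjusted p = 0.00698) and 0.30 (adjusted p = 0.00112). Grhl3, a grainyhead factor of epithelia, fell (-2.45 and -3.07), while Grhl1 rose by 0.83 and 0.55. Grhl2 rose most of this family, by 2.02 (edgeR adjusted p = 0.00304) and 1.32 (adjusted p = 0.00364), and in Nanog SunTag cells it was at 404 to 1103 normalised counts with LIF and 2630 to 3378 without it.

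The next comparison asked what Nanog induction did while LIF was present. In Nanog SunTag cells Nanog itself was at 21940 to 29487 without Dox and at 75226 and 93813 with Dox, a change of 1.74 (SE 0.39) that missed the threshold (edgeR adjusted p = 0.0793). Esrrb was at 21280 and 19114 with Dox, within the range of the libraries without it or just above. Tfcp2l1 was at 12617 and 13534, of which the second exceeded all libraries without Dox. The change was 0.12 for Esrrb (95% interval -0.32 to 0.55, edgeR adjusted p = 0.821) and 0.25 for Tfcp2l1 (-0.24 to 0.74, adjusted p = 0.643). In this comparison 0.563% of genes were called.

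With both guides Nanog rose by 1.19 (edgeR adjusted p = 0.0196) in LIF, and 22.9% of genes were called (12.9% higher and 10% lower). Esrrb was at 18084, 16111, 17605 and 15800 with Dox and Tfcp2l1 at 9327, 7696, 12894 and 11629. These values overlapped those without Dox for both genes. The change was -0.16 for Esrrb (-0.36 to 0.04, edgeR adjusted p = 0.242) and -0.01 for Tfcp2l1 (-0.63 to 0.62, adjusted p = 0.994). The Dox effect in LIF differed between the guide sets by -0.29 for Esrrb (95% interval -0.71 to 0.13, edgeR adjusted p = 0.644) and by -0.27 for Tfcp2l1 (-1.13 to 0.60, adjusted p = 0.866), with 0.037% of genes called. Of the 15 naive regulators none was called with the Nanog guide (median -0.10), where only 0.563% of all genes were called. With both guides 2 rose and 5 fell (median -0.50), where 12.9% of all genes were called higher and 10% lower. Nothing can be read from the count that rose. Tbx3 rose by 0.99 and Prdm14 by 0.41, and Klf2 fell by 1.27, Nr0b1 by 1.16 and Tcl1 by 1.06.

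In the absence of LIF the same induction went with higher levels of both genes. With the Nanog guide Esrrb was at 6677, 5889 and 5980 with Dox, against 533 to 852 without it. Tfcp2l1 was at 1727, 1456 and 1983 with Dox, against 279 to 487. No library overlapped between the groups. Esrrb rose by 3.23 (SE 0.20, edgeR adjusted p = 3.03e-05, 9.14-fold by means) and Tfcp2l1 by 2.20 (SE 0.21, edgeR adjusted p = 0.000226, 4.50-fold), where 5.14% of genes were called and 3.6% were higher. Only 84 of the 15624 genes tested had a larger positive change than Esrrb, and 262 a larger one than Tfcp2l1.

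With both guides, where Dox also raised Otx2 (1.76-fold), Esrrb was at 4925, 5388, 5808 and 4914 and Tfcp2l1 at 800.3, 876, 1846 and 1270. Every one of these values exceeded all values without Dox. Esrrb rose by 3.03 (SE 0.10, edgeR adjusted p = 7.46e-11, 7.99-fold) and Tfcp2l1 by 2.10 (SE 0.29, edgeR adjusted p = 0.000212, 4.17-fold), against 17.3% of genes called and 11.2% higher. The response differed between the guide sets by -0.23 for Esrrb (95% interval -0.62 to 0.15, edgeR adjusted p = 0.910) and by -0.15 for Tfcp2l1 (-0.96 to 0.66, adjusted p = 0.966), with 0.0308% of genes called. Within single clones the changes ran from 2.97 to 3.25 for Esrrb and from 1.98 to 2.31 for Tfcp2l1. Clone C2 gave 1 library with Dox and 1 without it, which was assumed to vary as its libraries with LIF do, and its values carry little weight as a test.

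**Figure D2:**
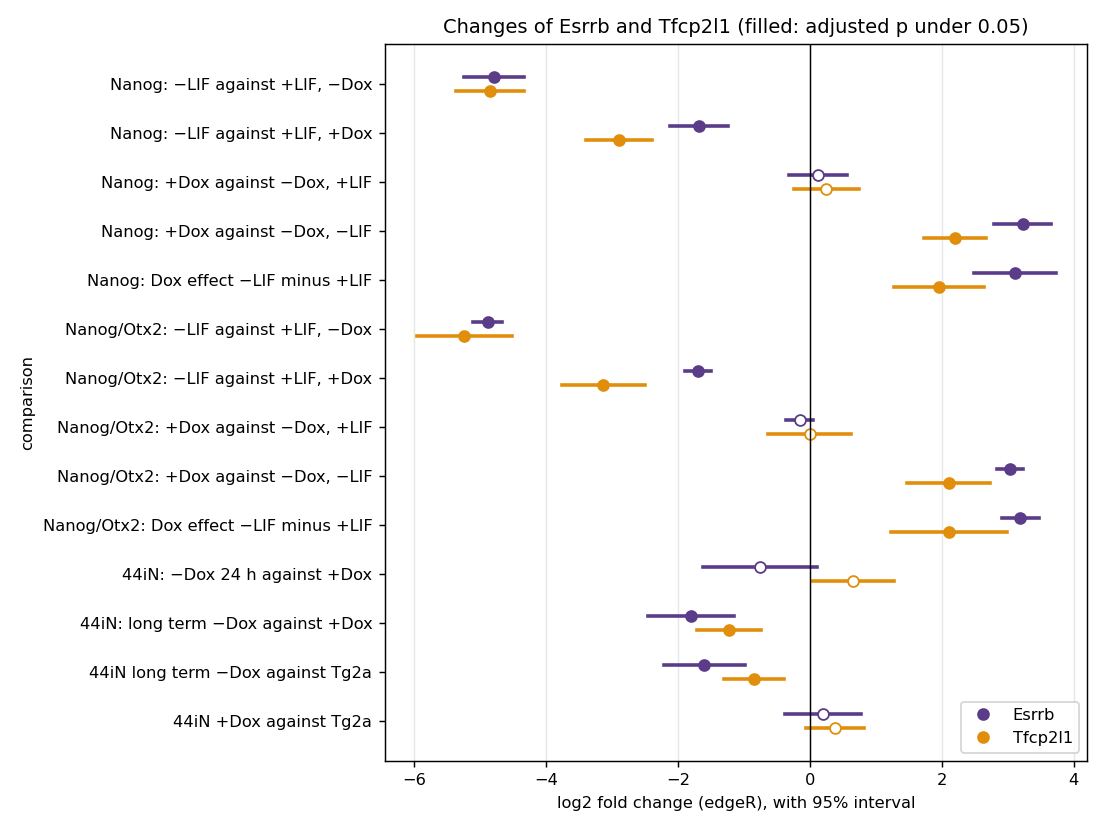
Log2 fold changes of Esrrb and Tfcp2l1 in the comparisons of the report, with 95% intervals as bars and filled points where the edgeR adjusted p was under 0.05. LIF withdrawal without Dox gave the lowest values (-4.79 to -5.24) and Dox without LIF the highest (2.10 to 3.23).

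The Dox effect depended on LIF for both genes. The difference between the effect without LIF and the effect with it was 3.11 for Esrrb (SE 0.28, edgeR adjusted p = 0.00124) and 1.95 for Tfcp2l1 (SE 0.31, adjusted p = 0.0113) with the Nanog guide, where 1.93% of genes were called. With both guides it was 3.19 for Esrrb (SE 0.13, edgeR adjusted p = 3.5e-09) and 2.11 for Tfcp2l1 (SE 0.41, adjusted p = 0.00463), against 9.7% of genes called. The Tfcp2l1 value with the Nanog guide lost its call without clone C1 of the 2 libraries with LIF and Dox (edgeR adjusted p = 0.0593).

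Most naive regulators behaved likewise without LIF. Of 15, 14 rose with the Nanog guide (median 2.39, against 0.002 over all genes) and 11 with both guides (median 2.04, against -0.007). Of all genes tested, 3.6% and 11.2% were called higher. Prdm14 rose by 3.28 and 3.04, Zfp42 by 3.11 and 2.74 and Tet2, a DNA demethylase, by 2.93 and 2.42. Klf2 rose less, by 1.55 and 1.23, and Dppa3 passed the test with neither guide set. By means, Gbx2 was 2.54-fold higher with the Nanog guide but went the other way with both guides (0.78-fold), where Nr5a2 was at 1.11-fold. None of the list was called lower with either guide set. Of the LIF pathway genes, Lifr rose by 1.87 and 1.71 and Il6st by 1.16 and 0.76, Stat3 rose by 0.67 with both guides, and Socs3 was at -0.76 (edgeR adjusted p = 0.221) and -0.62 (adjusted p = 0.220).

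Dox did not bring either gene back to its level in LIF. Of the mean level with LIF and without Dox, Esrrb kept 3.66% (Nanog guide) and 3.45% (both guides) after LIF withdrawal without Dox, and Tfcp2l1 kept 3.51% and 2.71%. With Dox, Esrrb was at 33.5% ± 2.3 (SD, n = 3) and 27.6% ± 2.2 (n = 4), and Tfcp2l1 at 15.8% ± 2.4 (n = 3) and 11.3% ± 4.5 (n = 4). The ranges of the 2 genes with Dox, 31.9% to 36.2% and 25.8% to 30.4% for Esrrb and 13.4% to 18.2% and 7.55% to 17.4% for Tfcp2l1, did not overlap. Cells without LIF and with Dox remained below cells with LIF and without Dox by 1.56 (Esrrb, edgeR adjusted p = 0.000196) and 2.65 (Tfcp2l1, adjusted p = 2.25e-05) with the Nanog guide, in a comparison with 28.1% of genes called. With both guides the differences were 1.85 (edgeR adjusted p = 6.97e-09) and 3.14 (adjusted p = 2.15e-06), with 45.3% called. Against cells with LIF and Dox, LIF withdrawal under Dox lowered Esrrb by 1.68 and 1.70 and Tfcp2l1 by 2.90 and 3.13, all called, where 32.6% and 36.5% of genes were called.

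Set beside the other naive regulators, Esrrb lay in the middle of the 17 genes ranked by the level kept with Dox and Tfcp2l1 near the end. Esrrb ranked 10 (Nanog guide) and 9 (both guides), and Tfcp2l1 ranked 14 and 17. Klf5 was at 122% and 67.0% of its level in LIF, Tet2 at 89.5% and 37.4% and Zfp42 at 51.6% and 33.4%, all above Esrrb. Tcl1, a coactivator of Akt, was at 17.6% and 14.5% and Klf2 at 11.3% and 14.8%, near Tfcp2l1. In the same cells Nanog was at 208% and 203% of its level with LIF and without Dox.

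**Figure D3:**
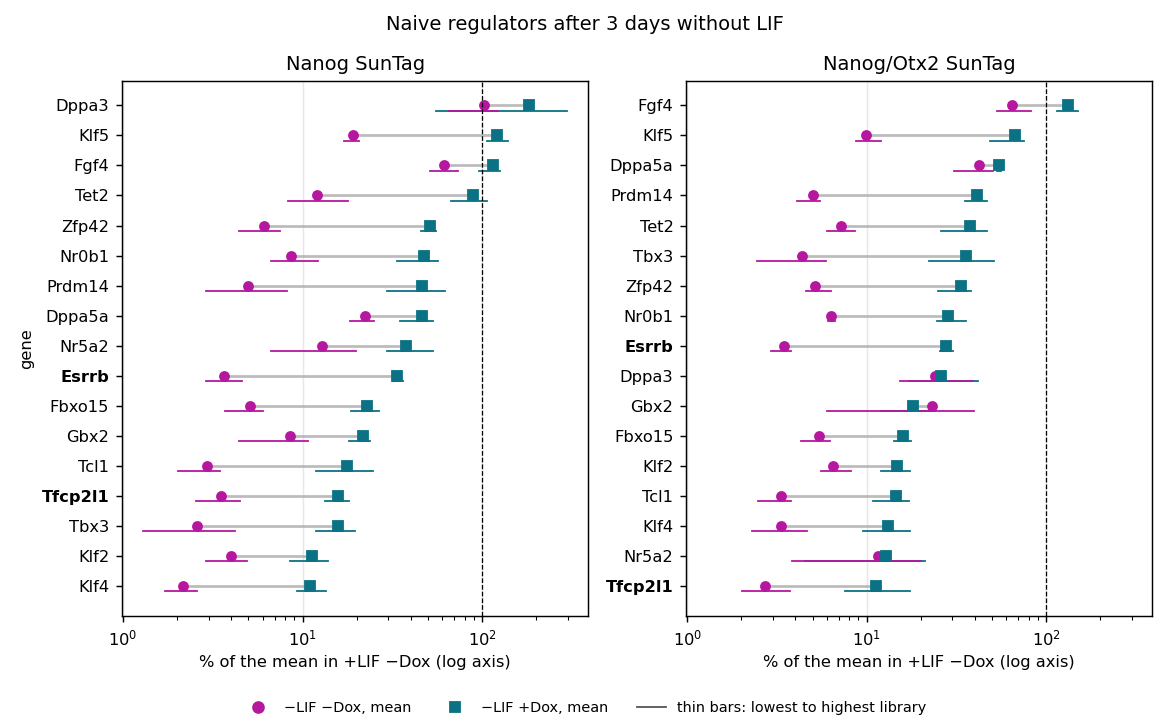
Level of Esrrb, Tfcp2l1 and 15 naive regulators after LIF withdrawal, as a percentage of the mean with LIF and without Dox, with and without Dox and 1 panel for each guide set (log axis, thin bars from the lowest to the highest library). Esrrb is at 33.5% and 27.6% with Dox, and Tfcp2l1 at 15.8% and 11.3%.

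The ratio of Tfcp2l1 to Esrrb was compared between conditions, where gene length does not matter. In Nanog SunTag cells its mean log2 was -0.76 with LIF and -0.83 without LIF and Dox (exact two-sided permutation p = 0.900, n = 3 and 3). With Dox and no LIF it was -1.85, a difference of -1.02 from cells without Dox with no overlap (exact two-sided permutation p = 0.100, n = 3 and 3, the smallest that 3 against 3 libraries allow, adjusted p = 0.200 over 4 tests). In Nanog/Otx2 SunTag cells the difference with Dox was -0.98 (-2.21 against -1.23, exact two-sided permutation p = 0.0571, n = 4 and 4, adjusted p = 0.200) and that with LIF withdrawal -0.34 (exact p = 0.314, adjusted p = 0.419). The groups overlapped there, but within clone C1ON3 the ratio was 0.163 in both libraries with Dox against 0.301 and 0.353 without it, and within C2ON3 it was 0.318 and 0.258 against 0.559 and 0.552.

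Loss of Nanog in the presence of LIF was followed in 44iN cells. With Dox the 2 libraries had 10695 and 17962 normalised counts of Esrrb and 24 h after its removal 7629 and 10545. Tfcp2l1 was at 23934 and 19646 with Dox and at 34842 and 38017 after 24 h. Both Esrrb values without Dox lay below both with it, and both Tfcp2l1 values above. Nanog over the same day went from 13366 and 18394 to 706 and 739.5. edgeR called no gene in this comparison (0% of 14376 genes, 1023 at an unadjusted p under 0.05, and 141 genes by DESeq2). The change was -0.76 for Esrrb (SE 0.35, 95% interval -1.63 to 0.11, edgeR adjusted p = 0.783) and 0.65 for Tfcp2l1 (SE 0.25, 0.03 to 1.27, adjusted p = 0.685), or 1.58-fold lower and 1.67-fold higher by means. With same-numbered libraries paired in a block, edgeR called the fall of Esrrb but not the rise of Tfcp2l1. The correlation of deviations was 0.56 for same-numbered libraries and -0.56 for the other pairing. With 2 libraries in each group the 2 values mirror each other, and 1 pairing is always positive. The correlation therefore cannot show that the numbers pair the libraries. Without replicate 1 of the libraries with Dox, edgeR called both changes (-1.08 for Esrrb, adjusted p = 0.000374, and 0.79 for Tfcp2l1, adjusted p = 0.0320), but that fit leaves 1 library with Dox and takes the spread from the 2 libraries of 24 h alone.

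After long-term culture without Dox both genes were lower. Esrrb was at 3857 and 4339 and Tfcp2l1 at 10539 and 8075, below every library with Dox. Esrrb fell by 1.80 (SE 0.29, edgeR adjusted p = 0.00606, to 28.6% of the level with Dox) and Tfcp2l1 by 1.23 (SE 0.22, edgeR adjusted p = 0.00893, to 42.7%), with 12.1% of genes called and 6.02% lower. Nanog was at 1.59% of its level with Dox. Compared with 24 h without Dox, Tfcp2l1 fell by 1.91 (edgeR adjusted p = 0.00535, 3.91-fold) and Esrrb by 1.09 (edgeR adjusted p = 0.0477), where 8.74% of genes were called. The markers of extraembryonic endoderm stood higher in the long-term libraries (sums of 3889 to 6026) than in the other 44iN libraries. Tg2a cells also had high sums (2057 to 2645), with means of 11965 for Esrrb and 16062 for Tfcp2l1. The part of these markers in the falls of the 2 genes was not tested.

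Against Tg2a cells, in which Esrrb was at 10651, 10617 and 14626 and Tfcp2l1 at 16375, 17683 and 14129, long-term 44iN cells had lower levels of both. Esrrb was lower by 1.60 (edgeR adjusted p = 0.0156, 34.3% of the Tg2a level) and Tfcp2l1 by 0.85 (edgeR adjusted p = 0.0456, 57.9%), with 5.24% of genes called. 44iN cells with Dox differed from Tg2a cells by 0.20 for Esrrb (95% interval -0.37 to 0.77, edgeR adjusted p = 0.719) and 0.38 for Tfcp2l1 (-0.06 to 0.82, adjusted p = 0.303), with 4.72% called. Library names begin with HV_C for 44iN cells with Dox and 24 h without it, HV_D for long-term cells and HV_E for Tg2a cells. What the letters stand for is not given, and in the long-term and Tg2a comparisons they cannot be told apart from condition. Comparisons of 44iN conditions share libraries, and leaving out 1 library at a time ended several calls. Without long-term replicate 1 or 2 the fall of Esrrb against Dox lost its call (edgeR adjusted p = 0.0686 and 0.0504), as did its difference from Tg2a cells (0.188 and 0.116), which was also lost without Tg2a replicate 2 (0.0568). The fall of Tfcp2l1 against Dox was lost without long-term replicate 2 (edgeR adjusted p = 0.0804), and that against 24 h without long-term replicate 2 or 24 h replicate 2 (0.0511 and 0.0503). The difference of Esrrb from 24 h and that of Tfcp2l1 from Tg2a cells were lost without any of their libraries (edgeR adjusted p from 0.109 to 0.222 and from 0.0555 to 0.282).

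Of 15 naive regulators, 5 fell in long-term 44iN cells against cells with Dox (median -0.58, against -0.05 over all genes), where 6.02% of all genes were called lower. Prdm14 fell by 2.56, Klf4 by 1.96, Tet2 by 1.69, Tbx3 by 1.50 and Klf5 by 0.70, while Zfp42 was at -0.58 (edgeR adjusted p = 0.0955). The 6 LIF pathway genes changed by -0.60 to 0.23 with none called, a count from which nothing can be read where 12.1% of all genes were called. Of 6 formative and primed genes tested, 4 rose and 1 fell, where 6.11% of all genes were called higher and 6.02% lower. The induction of Nanog in LIF was also compared between 44iN cells (Dox against 24 h without it) and Nanog SunTag cells. The difference in response was 0.60 for Esrrb (95% interval -0.36 to 1.56) and -0.94 for Tfcp2l1 (-1.65 to -0.22), and edgeR called 0% of genes (adjusted p = 1.00 for both, 514 genes at an unadjusted p under 0.05, 15 genes by DESeq2).

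**Figure D4:**
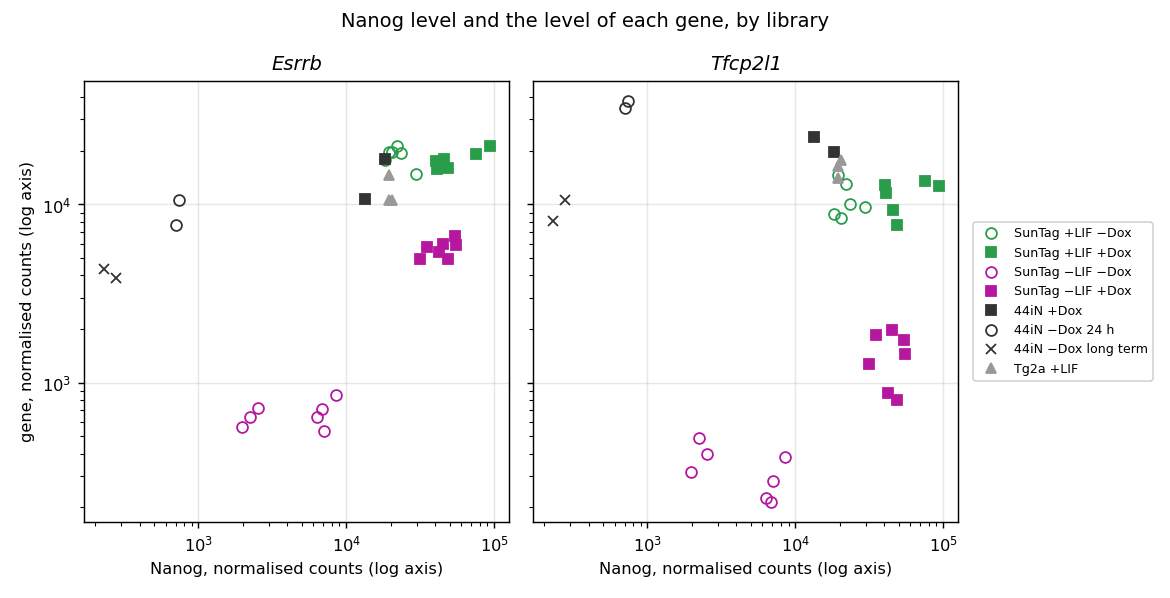
Normalised counts of Esrrb and Tfcp2l1 against those of Nanog in each library (log axes), with one symbol for each cell type and condition. At Nanog levels of 31697 to 55641, SunTag cells without LIF and with Dox have 4914 to 6677 counts of Esrrb, while Tg2a cells, with 19420 to 20261 of Nanog, have 10617 to 14626.

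Levels of the 2 genes were not ordered by Nanog alone. Over the 12 condition means, Pearson's r with Nanog on the log scale was 0.44 for Esrrb and -0.03 for Tfcp2l1, and with Otx2 -0.62 and -0.69, values that rest on conditions of shared cell lines. Long-term 44iN cells had the least Nanog (228 and 276) and still held 3857 and 4339 counts of Esrrb and 8075 and 10539 of Tfcp2l1 in LIF. SunTag cells without LIF and Dox had more Nanog (1974 to 8484) and far less of both genes, 533 to 852 of Esrrb and 214 to 487 of Tfcp2l1.

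Esrrb and Tfcp2l1 were alike at r = 0.853 over the 12 condition means, and 12845 genes were ranked in this way. Tfcp2l1 ranked 253 among the genes most like Esrrb and Esrrb 560 among those most like Tfcp2l1. The most like Esrrb were Tgm1 (0.986), H2-M6-ps (0.982), 4930452B06Rik (0.979), Prdm14 (0.977) and Cdyl2 (0.973). The most like Tfcp2l1 were Zeb1 (0.993), Jam2 (0.989), Brp44l (0.988), Hcfc2 (0.981) and Mmrn2 (0.980). The symbol Zeb1 is listed under several identifiers, and its value is that of a single entry. Of the other naive regulators, Tcl1 ranked 13 and Klf4 20 for Esrrb, and Fbxo15 ranked 24 for Tfcp2l1.

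The clones set the 2 genes apart. Without LIF and Dox, Nanog was at 7032 and 8484 in C1 and 2234 in C2, and at 6867 and 6327 in C1ON3 against 1974 and 2533 in C2ON3, so that C1 and C1ON3 had 3.47 and 2.93 times the Nanog of the other clones. Esrrb in the same libraries was at 533 and 852 in C1 and 644 in C2, and at 712 and 638 in C1ON3 against 562 and 720 in C2ON3. Tfcp2l1 was at 279 and 383 in C1 and 487 in C2, and at 214 and 225 in C1ON3 against 314 and 397 in C2ON3. The clones overlapped for Esrrb, and C2 and C2ON3 were above C1 and C1ON3 for Tfcp2l1 in spite of less Nanog. Over all conditions, Esrrb differed between C2 and C1 by 0.04 (95% interval -0.27 to 0.35, edgeR adjusted p = 0.880) and between C2ON3 and C1ON3 by 0.004 (-0.13 to 0.14, adjusted p = 0.973). Tfcp2l1 was higher in C2 by 0.32 (edgeR adjusted p = 0.142, not called) and higher in C2ON3 by 0.72 (SE 0.09, edgeR adjusted p = 1.32e-05), with 7.23% and 35.2% of genes called and 15.8% higher in C2ON3.

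The Tfcp2l1 difference went with its chromosome, in a description added after the data were seen. The median difference over genes of chromosome 1 was 0.46 (872 genes, C2 against C1) and 0.52 (859 genes, C2ON3 against C1ON3). The medians of the other 19 chromosomes lay between -0.10 and 0.02 and between -0.09 and 0.08. Within 5 Mb of Tfcp2l1, 18 of 18 genes (median 0.59) and 19 of 20 genes (median 0.64) were higher in the C2 clones, and within 5 Mb of Esrrb 43 of 90 and 54 of 89 were. Relative to the median of its chromosome, Tfcp2l1 differed by -0.15 and 0.19. The study describes the karyotypes of the parental clones as normal. DNA copy number of the cells sequenced was not measured here, and its part in the difference was not tested.

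**Figure D5:**
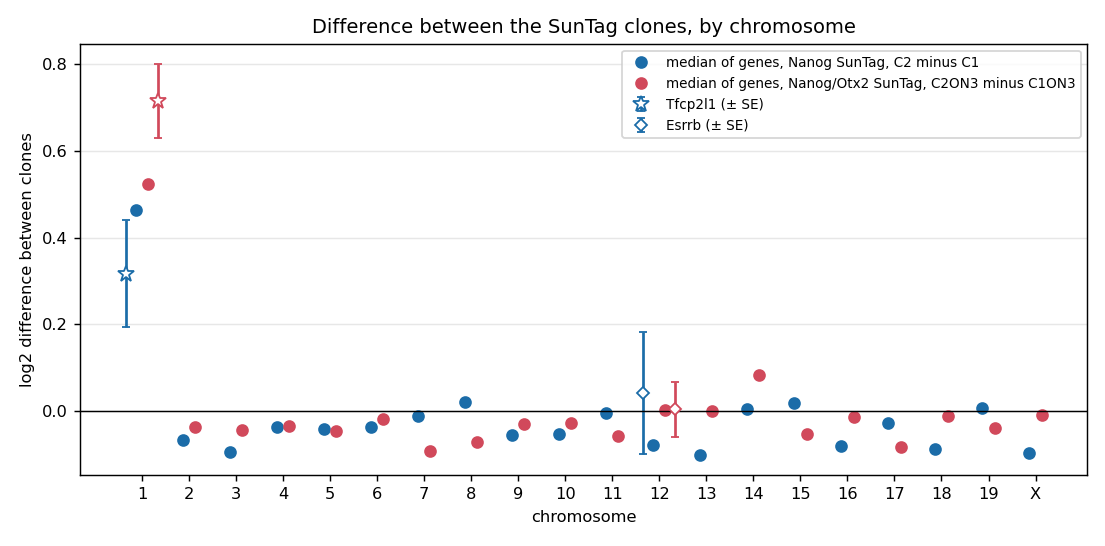
Median log2 difference between clones by chromosome for either guide set, with the differences of Esrrb and Tfcp2l1 (± SE) at their chromosomes. Chromosome 1 stands at 0.46 and 0.52, and the other chromosomes between -0.10 and 0.08.

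Genes next to the members were chosen by position after the data were seen. On LIF withdrawal 1700020O03Rik, 69703 bases before Esrrb, was at 0.25 (edgeR adjusted p = 0.283) and 0.09 (adjusted p = 0.502). Vash1, 157072 bases after Esrrb, fell on LIF withdrawal by 1.84 and 1.26 and in long-term 44iN cells against cells with Dox by 1.76 (edgeR adjusted p = 0.0144). Gli2, which encodes a Hedgehog pathway factor and is the neighbour of Tfcp2l1 on one side, fell by 2.32 (edgeR adjusted p = 0.00109) and 1.86, and fell by 2.20 in long-term 44iN cells against cells with Dox (edgeR adjusted p = 0.00178). Clasp1, on the other side of Tfcp2l1, rose by 0.91 (edgeR adjusted p = 0.0155) and 0.82 (adjusted p = 0.0214). With Dox in the absence of LIF, Gli2 changed by 1.19 (edgeR adjusted p = 0.123) and rose by 1.18 with both guides (adjusted p = 0.0172), and Clasp1 was not called.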

How the data were processed

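RNA-seq libraries of mouse ES cells were analysed from deposited tables. The estimated counts were made by the authors with STAR on mm9 and RSEM and rounded to whole numbers. The second deposited table is a signal, in which DESeq2 size factors scale the counts of the libraries, called normalised counts here. CASAVA 1.8 is named in the submitters' processing notes. The tables list 37620 genes in 35 libraries, and 3 Tg2a libraries grown in 2i were not analysed here.

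Estimated counts were fitted with edgeR 4.0.16 (quasi-likelihood, TMM, R 4.3.3) where all libraries of 1 group or more reached 10 normalised counts, and p-values were adjusted over all genes tested by the Benjamini-Hochberg method, with calls under 0.05. Nanog SunTag (11 libraries) and Nanog/Otx2 SunTag cells (15 libraries) were fitted separately with LIF, Dox and their interaction, and together for differences between guides. 44iN cells with Dox and 24 h without it were fitted alone, and the long-term comparisons with Tg2a cells in the model. Clone differences were fitted with condition in the model. Ratios were tested by exact permutation over libraries. Likeness is Pearson's r of log2(normalised counts + 1) condition means among genes with a mean of at least 100 in 1 condition. Tables were joined in pandas 2.3.3 (Python 3.11.15, with numpy 2.4.6), and scipy 1.17.1 ran the permutations.

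The members and the gene lists were chosen with earlier results of these data known. The genes named were the members of these lists, the close relatives, the 5 genes most alike and the neighbours. Same-numbered libraries of a clone deviated together in Nanog/Otx2 SunTag cells (mean correlation of deviations from the group means 0.32, lowest 0.14), with the numbers taken from the titles. Libraries of the same clone, whatever their number, also deviated together on average (mean correlation 0.24). The value for same-numbered libraries thus includes what the clone shares. A clone is the same cell line throughout. Alternatives were DESeq2 1.42.0, its size factors in edgeR, other filters, each clone alone, each replicate left out and a replicate block. Standard errors and intervals cover counting error and the spread of these libraries only.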

Additional observations from a re-analysis of the deposited data

Results flagged for a closer look

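Both genes, which were taken by name, responded to Dox in the absence of LIF by more than in its presence. That difference is the result flagged here. The same test called 1.93% of all genes with the Nanog guide and 9.7% with both guides. For Esrrb the difference between the Dox effects was 3.11 on the log2 scale (SE 0.28, edgeR adjusted p = 0.00124) with the Nanog guide and 3.19 (SE 0.13, edgeR adjusted p = 3.5e-09) with both guides. For Tfcp2l1 it was 1.95 (SE 0.31, edgeR adjusted p = 0.0113) and 2.11 (SE 0.41, edgeR adjusted p = 0.00463). In every SunTag clone the libraries without LIF and with Dox exceeded those with neither for both genes. No library stood apart from the others of its condition by Dixon's test of Esrrb and Tfcp2l1 in the conditions with 4 libraries.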

How the results depend on the processing

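Of 46 values with a test, DESeq2 and DESeq2's size factors kept 46 each in direction and on their side of the threshold, edgeR's own filter and no filter 44 each, and the replicate block 41 of 42. The paired block was decisive for 1 result, Esrrb 24 h after Dox removal in 44iN cells (-0.72, edgeR adjusted p = 0.0128). There the labels pair libraries by number alone. The correlation of deviations from the group means (0.56) cannot show that pairing. With 2 libraries in each group, the other pairing gives the same value with the opposite sign (-0.56). The replicate block changed no other call of the 2 genes. Nor did the column numbers or the clone alone as a block in Nanog/Otx2 SunTag cells (12 of 12 each), both chosen after seeing the data. With edgeR's own filter, Esrrb between long-term and 24 h 44iN cells (-1.08, adjusted p = 0.0516) and Tfcp2l1 between long-term 44iN and Tg2a cells (-0.84, adjusted p = 0.0547) lost their calls. Values near 0 changed sign, namely Esrrb between C2ON3 and C1ON3 without a filter (-0.0038) and Tfcp2l1 with Dox in LIF and both guides without a filter (0.028) or with only the 2 conditions fitted (0.018). The cause was not tested.

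With each replicate left out in turn, 334 of 374 edgeR values kept direction and call, and the results below had fits that did not. Esrrb ranged from -1.08 to -0.29 for 24 h against Dox, -2.12 to -1.37 for long term against Dox, -1.28 to -0.84 for long term against 24 h, -1.72 to -1.45 for long-term 44iN against Tg2a cells and -0.26 to 0.50 for 44iN cells with Dox against Tg2a cells. It ranged from -0.24 to 0.11 for the difference between guides in LIF withdrawal, -0.10 to 0.12 between C2 and C1 and -0.029 to 0.043 between C2ON3 and C1ON3. Tfcp2l1 ranged from 0.54 to 0.79, -1.43 to -1.06, -2.12 to -1.74 and -1.05 to -0.70 for the first 4 of these comparisons, 1.77 to 2.16 for the dependence of the Dox effect on LIF with the Nanog guide and -0.15 to 0.29 for Dox in LIF with both guides. For the differences between guides it ranged from -0.43 to 0.0068 (Dox in LIF) and -0.43 to 0.048 (Dox without LIF), and the ratio to Esrrb on LIF withdrawal with the Nanog guide from -0.29 to 0.089.

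Over all genes DESeq2 called more than edgeR, by over 1.5 times in Nanog SunTag cells for Dox with LIF (587 against 88), Dox without LIF (1509 against 803) and their difference (877 against 302), and for clone C2 against C1 (2148 against 1129). The same held for the differences between guides (856 against 403, 54 against 6 and 41 against 5), for long-term 44iN cells against 24 h (2555 against 1339) and Tg2a cells (1754 against 803) and for 44iN cells with Dox against Tg2a cells (1568 against 723).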
